A study of Mus musculus with 8 samples.

Results

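The proteasome genes of cultured mouse macrophages were compared between cells with and without the transcription factor Ets1. The genes were the protein-coding ones in the expression table whose symbol begins with Psma, Psmb, Psmc, Psmd, Psme, Psmf or Psmg and a digit, which gave 49 genes of 23346 in the table and of 15526 protein-coding ones. The RNA libraries came from bone marrow-derived macrophages, grown from the marrow of male mice 8 weeks old for 7 days in medium with 10% serum and 10 ng/ml M-CSF, the growth factor that drives marrow precursors toward macrophages. The 3 control libraries carried Ets1 f/f, and the 3 knockout libraries carried Ets1 f/f together with Lyz2-cre, a Cre recombinase expressed from a lysozyme gene that is active in macrophages and other myeloid cells, so that both groups shared the f/f allele and differed in Cre. Ets1 binding was mapped by chromatin immunoprecipitation in wild type C57 bone marrow-derived macrophages after M1 or M2 polarization, the classically and alternatively activated states, with 1 library each. These cells too came from mice 8 weeks old and were grown for 7 days with 10% serum and 10 ng/ml M-CSF. The labels do not say whether the 3 libraries of a group came from separate animals, so the p-values measure the spread between these libraries.

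The proteasome is the cell's main machine for breaking down proteins tagged with ubiquitin. Its 20S core is a barrel of outer rings of alpha subunits and inner rings of beta subunits, of which Psmb5, Psmb6 and Psmb7 cut proteins, and its 19S cap holds a ring of ATPases that unfold the substrate and non-ATPase subunits that bind and remove ubiquitin. In immune cells, and under interferon gamma, Psmb8, Psmb9 and Psmb10 replace Psmb5, Psmb6 and Psmb7 during assembly, and Psme1 and Psme2 form the PA28 activator, which together shift the peptides offered on MHC class I molecules. Dedicated chaperones (Psmg1 to Psmg4 for the core, Psmd5, Psmd9 and Psmd10 for the base of the cap) help the particle to assemble and are not part of the finished machine.

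All 49 genes passed the filter on low values and were tested, and most of them were at similar levels in both groups. With limma at an adjusted p under 0.05, 5 genes rose in the knockouts (Psmd1, Psmd2, Psmd13, Psme4 and Psme2b), 1 fell (Psmb9) and 43 were not called. Over all 20595 genes tested, 20.9% were called, 10.4% higher and 10.5% lower. The groups of libraries did not overlap in 12 genes that were higher and in 2 that were lower in knockouts, Psmd11 and Psmc3ip, against 18.3% of all genes tested that lay apart and higher and 18.5% that lay apart and lower (36.8% in all). The median log2 fold change of the 49 genes was -0.04, and it was also -0.04 over all genes tested. By role, limma called 0 of the 14 genes of the constitutive 20S core, 0 of the 6 ATPases, 3 of the 11 non-ATPases and 1 of the 5 immunoproteasome genes, and differences between roles were not tested.

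**Figure D1:**
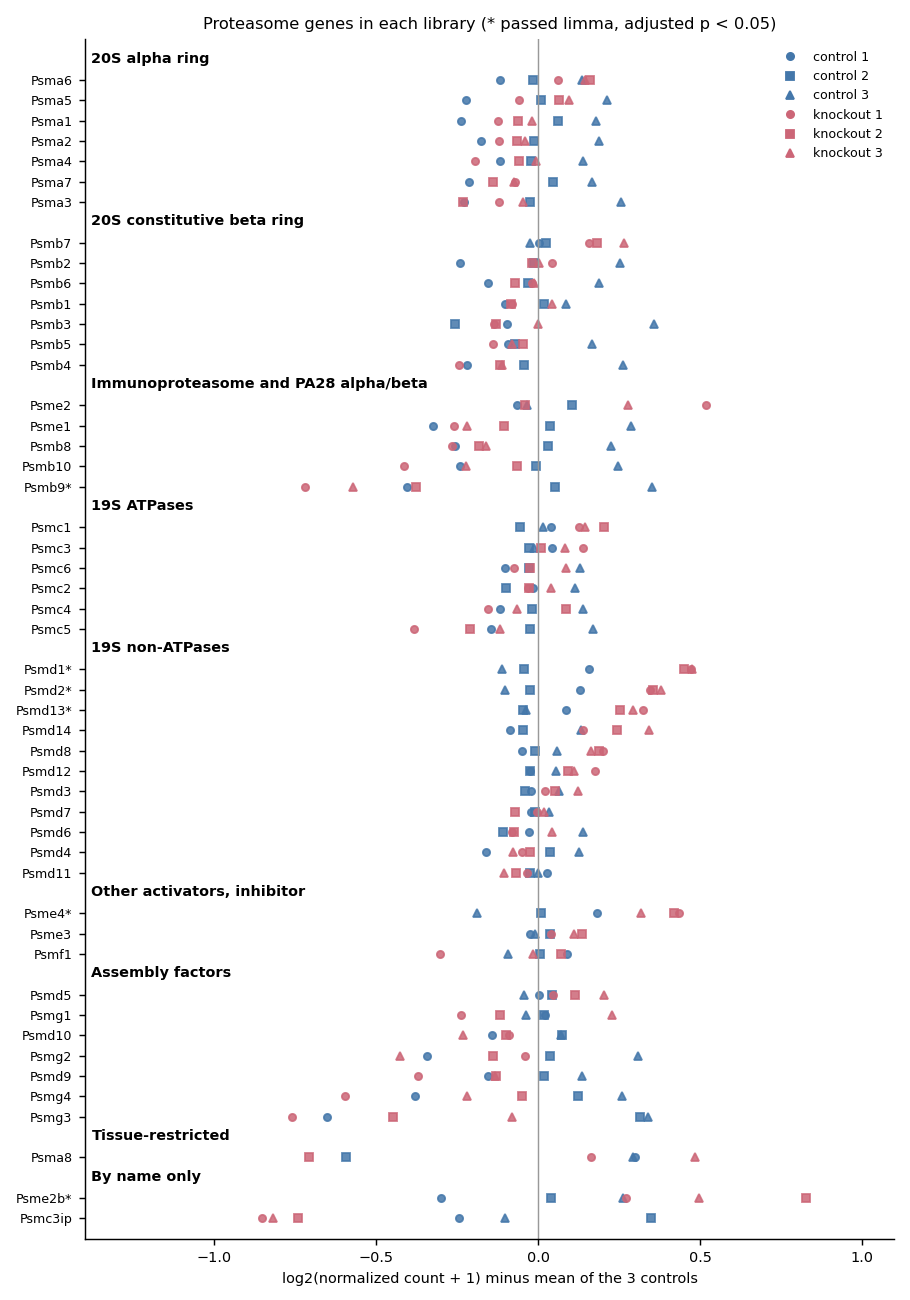
Each of the 49 genes by role, with its log2(normalized count + 1) in each of the 6 libraries minus the mean of the 3 controls on the horizontal axis. Blue marks are controls, red marks are knockouts, the marker shape gives the replicate, and an asterisk marks the 6 genes past limma's adjusted p of 0.05. The red marks of Psmd1, Psmd2, Psmd13 and Psme4 all lie to the right of the blue ones, and in most core genes control 1 and control 3 lie further apart than the 3 knockouts.

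The 6 RNA libraries held between 16897873 and 20259175 reads on genes, with 18980 to 20217 genes detected. The targeted gene was lower in every knockout library: Ets1 had normalized counts of 3641, 3337 and 2869 in controls and 825, 755 and 645 in knockouts, a log2 fold change of -2.15 (SE 0.11), where the position of the deleted part is not given. All 8 macrophage markers were detected, with a summed level of 99.1 to 101% of the control mean in controls and 129 to 134% in knockouts. The sum was carried by Lyz2 and Adgre1, which rose, while Csf1r fell. Lyz2 held 138291 of the 284725 summed counts of the control mean. It is also the gene named in Lyz2-cre, so a change in its level cannot be told apart from the Cre design. Of the 8 markers, 5 had a negative log2 fold change, and the median was -0.09. Of the markers of other cells, and against 10.5% of all genes tested, those called lower in knockouts were 5 of 8 for B cells, 5 of 8 for neutrophils, 4 of 7 for mast cells and basophils, 7 of 7 for stroma, 3 of 6 for endothelium and 4 of 5 for megakaryocytes. None of these markers was called higher by limma. Of the dendritic cell markers 2 of 8 were called lower, of the T and NK cell markers 1 of 5 (Cd4) and of the erythroid markers 1 of 3. In these bulk libraries, fewer cells of a type and less RNA per cell cannot be told apart.

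Ets1 peaks lay at the starts of most proteasome genes in both activated states. Within 1 kb of the gene start, 39 of the 49 genes had a peak in M1 and 38 in M2 macrophages, and 37 (75.5%) had one in both. Over all protein-coding genes of the table, 54.7% had a peak in M1, 56.7% in M2, 50.4% in both and 60.9% in either. Among protein-coding genes with a mean normalized count of at least 100, 70.5% had a peak in both lists, so that the share of the proteasome genes was close to that of other well expressed genes. Peaks in both lists were found at all 6 ATPases, at 10 of 11 non-ATPases, at 6 of 7 alpha genes, at 4 of 7 constitutive beta genes, at 4 of 5 immunoproteasome genes and at 4 of 7 assembly factors. There was 1 library per state and the peaks are the authors' calls, so the lists were not compared by a test.

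The 9 genes with no peak in either list were Psma6, Psmb4, Psmb6, Psmb10, Psmd5, Psmd9, Psmf1, Psma8 and Psme2b. Psmd7, the partner of the deubiquitinase Psmd14, and the assembly factor Psmg3 had a peak in M1 only, and Psmb7 had one in M2 only. For Psmd5, Psmd9 and Psmf1 the gene start of the deposited table lay 4006, 58777 and 2876 bp from the RefSeq start. At the RefSeq start, Psmd5 had a peak in both lists, and Psmd9 and Psmf1 had one in M1. The core gene with the highest fold enrichment, as the authors' caller gave it, was Psma4 with 15.0 in M2, followed by Psma3 with 14.6 in M1. The median fold enrichment was 8.27 in M1 and 7.89 in M2 for the proteasome genes, against 8.04 and 7.86 for the peaks at all gene starts.

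**Figure D2:**
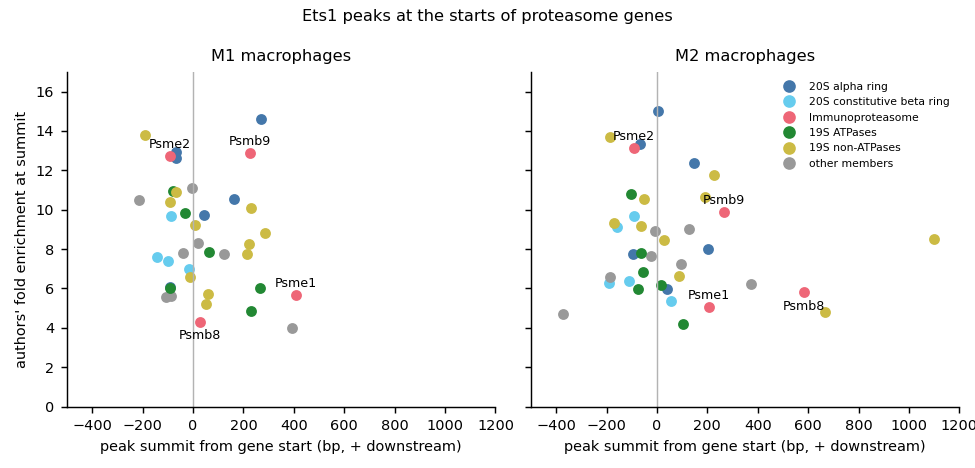
Position and height of the Ets1 peak with the smallest q value among those overlapping 1 kb either side of the start of each proteasome gene, in M1 (left) and M2 (right) macrophages. The horizontal axis is the distance of the peak summit from the deposited gene start in bp, with downstream to the right, the vertical axis is the authors' fold enrichment, and colours give the role. Of the immunoproteasome genes, Psme2 and Psmb9 stand at 12.7 and 12.9 in M1, and Psmb8 and Psme1 at 4.32 and 5.68.

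Of the immunoproteasome genes, Psme2 had the peak with the smallest q value of the 5, with a -log10 q of 66.9 in M1 and 91.9 in M2. Its start lies 595 bp from that of the divergent gene Rnf31, which encodes a subunit of a linear ubiquitin ligase, and the peak spans both starts with its summit between them. Psmb9 had a fold enrichment of 12.9 in M1 and 9.88 in M2. Its RefSeq start lies 226 bp from that of Tap1, which encodes a peptide transporter of the same antigen presentation pathway and is read from the other strand. Psmb8 had 4.32 and 5.81, Psme1 had 5.68 and 5.04, and Psmb10 had no peak within 1 kb. The peaks came from polarized wild type macrophages and the RNA from the Ets1 f/f cultures, so they were not measured in the same cells. Among the 37 genes with a peak in both lists, 4 were called higher and 1 lower in knockouts, with a median log2 fold change of -0.04. Of 7786 protein-coding genes with a peak in both lists, 1400 were called higher and 684 lower, with a median of 0.03. Among the other 12 proteasome genes, 1 was called higher and 0 lower in the limma fit, with a median of -0.03, and of the other 6878 protein-coding genes 629 were higher and 1255 lower, with a median of -0.19.

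The promoters of 4 genes that rose and of catalytic genes that replace each other are shown, so that the letters near their starts can be read beside the peaks. The printed stretch of Psmb6 holds no peak, and those of Psmd2 and Psmb8 are overlapped by the M2 peak and not by the M1 peak. Each line gives 150 bases, from 130 before to 20 after the RefSeq start (build GRCm38.p6, gene strand), and capitals mark matches to 5 searched motifs. They are Psmd1 at chr1:86064489-86064638 (plus strand), Psmd2 at chr16:20651522-20651671 (plus strand), Psmd13 at chr7:140882264-140882413 (plus strand) and Psme4 at chr11:30771645-30771794 (plus strand), which rose. Psmd11, at chr11:80428485-80428634 (plus strand), is a lid subunit that was not called.
Psmd1: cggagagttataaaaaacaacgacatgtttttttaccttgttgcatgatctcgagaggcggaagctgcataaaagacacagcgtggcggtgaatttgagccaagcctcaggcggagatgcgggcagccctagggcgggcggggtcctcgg
Psmd2: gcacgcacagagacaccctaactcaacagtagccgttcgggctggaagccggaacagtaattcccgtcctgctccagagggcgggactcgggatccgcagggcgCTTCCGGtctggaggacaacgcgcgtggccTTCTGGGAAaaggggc
Psmd13: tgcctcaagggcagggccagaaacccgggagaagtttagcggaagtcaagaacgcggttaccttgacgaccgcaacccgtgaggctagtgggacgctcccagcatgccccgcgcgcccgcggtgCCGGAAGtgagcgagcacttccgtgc
Psme4: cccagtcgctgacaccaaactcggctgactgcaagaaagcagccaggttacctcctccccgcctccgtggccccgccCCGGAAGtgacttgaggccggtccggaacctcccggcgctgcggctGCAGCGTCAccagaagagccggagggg
Psmd11: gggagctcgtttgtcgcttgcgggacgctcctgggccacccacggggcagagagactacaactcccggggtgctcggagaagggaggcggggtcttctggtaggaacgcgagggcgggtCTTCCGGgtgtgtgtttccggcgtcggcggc

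The constitutive catalytic genes Psmb5 at chr14:54617976-54618125 (minus strand) and Psmb6 at chr11:70525227-70525376 (plus strand) are set beside Psmb8 at chr17:34198065-34198214 (plus strand) and Psmb9 at chr17:34187311-34187460 (minus strand), which take their places, and the activator gene Psme1 at chr14:55578364-55578513 (plus strand).
Psmb5: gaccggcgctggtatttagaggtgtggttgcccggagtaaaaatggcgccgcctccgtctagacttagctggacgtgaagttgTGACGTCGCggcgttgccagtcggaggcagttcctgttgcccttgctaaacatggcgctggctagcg
Psmb6: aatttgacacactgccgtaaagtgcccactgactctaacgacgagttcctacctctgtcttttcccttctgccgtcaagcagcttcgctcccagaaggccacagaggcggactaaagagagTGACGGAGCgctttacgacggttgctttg
Psmb8: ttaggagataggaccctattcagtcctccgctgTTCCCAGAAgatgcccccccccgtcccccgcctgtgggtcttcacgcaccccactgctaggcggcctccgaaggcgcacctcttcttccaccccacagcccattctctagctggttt
Psmb9: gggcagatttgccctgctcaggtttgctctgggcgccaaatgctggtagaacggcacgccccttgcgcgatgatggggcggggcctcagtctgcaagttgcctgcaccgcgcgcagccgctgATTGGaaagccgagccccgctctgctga
Psme1: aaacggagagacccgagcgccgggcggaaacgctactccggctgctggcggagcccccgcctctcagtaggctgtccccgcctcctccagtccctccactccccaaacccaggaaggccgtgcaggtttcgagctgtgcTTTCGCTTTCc

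The ETS-type site CCGGAAG was found, on either strand, in 14 of the 41 proteasome genes with a RefSeq promoter (250 bases before to 50 after the start). This was 34.2%, against 16.2% of 11950 promoters, 20.8% of those of genes with a mean normalized count of at least 100 and 22.3% of those with a peak in both lists. It was present in 9 of 25 constitutive subunit genes and in 0 of 5 immunoproteasome genes. In Psmd2 it begins 26 bases before the start, on the other strand, in Psmd13 6 bases before, in Psme4 53 bases before and in Psmd11, on the other strand, 11 bases before. Psmd1, with the largest change of the called cap genes, held none of the 5 motifs in its window. A match describes letters, and its absence says only that these letters were not found in that window.

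The other motifs were searched in the same windows on both strands, and each was counted whether or not it overlapped another. The antioxidant response element TGACNNNGC, a type of site bound by Nfe2l1, was found in 6 of 41 promoters (14.6%, and 14.6% of all promoters), among them Psmb5, Psmb6 and Psme4. The CCAAT box was found in 14 (34.2%, against 38.3%), including Psmb9, where it begins 8 bases before the start on the other strand. The interferon response factor motif (GAAA, any pair of bases, GAAA) was found in 5 (12.2%, against 3.19%), which were Psmb3, Psmd4, Psmd9, Psmg4 and, of the immunoproteasome genes, Psme1. The STAT motif TTCNNNGAA was found in 3 (7.32%, against 6.89%), which were Psmb8, Psmd2 and Psmg1.

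Among the roles, the non-ATPase subunits of the 19S cap held the largest number of called genes, with 3 of 11 higher and 0 lower in the limma fit. Over all genes tested, 10.4% were called higher. Of the 4054 protein-coding genes at the control level of the constitutive core and cap genes, 1231 were called higher. The 11 were chosen by symbol, and Sem1, a cap subunit with another name, was called lower (log2 fold change -0.58). Psmd1, at chr1:86064387-86139151 (mm10, plus strand), encodes the large scaffold protein at the centre of the cap. It had normalized counts of 2696, 2342 and 2234 in controls and 3353, 3300 and 3357 in knockouts. All 3 knockouts were close together and lay above the highest control. The log2 fold change was 0.47 (SE 0.08, limma adjusted p = 0.00187), and the call held whichever library was left out, with adjusted p between 8.62e-05 and 0.0273.

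Psmd2, at chr16:20651652-20663414 (plus strand), encodes the other large scaffold, on which ubiquitin shuttle proteins and the deubiquitinase Usp14 dock. It was the proteasome gene with the highest count, at 5702, 5121 and 4856 in controls and 6627, 6664 and 6778 in knockouts, again with no overlap. The log2 fold change was 0.36 (SE 0.08, adjusted p = 0.00626), and the adjusted p was 0.0553 without control 2 and 0.0514 without knockout 2. Psmd13, a lid subunit at chr7:140881968-140898643 (plus strand), had 1401, 1276 and 1284 in controls and 1652, 1570 and 1616 in knockouts. Its groups lay apart, with a log2 fold change of 0.29 (SE 0.08, adjusted p = 0.0173). This call was lost when values were scaled to total reads (adjusted p = 0.142) and without control 2 (0.0945), knockout 1 (0.0851), knockout 2 (0.0662) or knockout 3 (0.0735), in a range over all alternatives of 0.0033 to 0.142. Psmd13 overlaps Sirt3 on the opposite strand at its start, and Sirt3 held 469 control reads against 4255 for Psmd13.

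The 8 other genes of these 11 non-ATPases were not called. Psmd14, the deubiquitinase that releases ubiquitin chains from the substrate, had 990, 1017 and 1153 in controls and 1157, 1245 and 1331 in knockouts, a log2 fold change of 0.24 (adjusted p = 0.0745) with the groups just apart. Psmd8 had a log2 fold change of 0.18 and Psmd12 of 0.13, also with the knockouts above all controls. Psmd11, which clamps the cap onto the core, had the lowest fold change of this role, with 1253, 1207 and 1229 in controls and 1201, 1172 and 1142 in knockouts (log2 fold change -0.07, SE 0.07). The remaining Psmd3, Psmd4, Psmd6 and Psmd7 lay between -0.05 and 0.07 with overlapping groups. The median over the 11 genes was 0.13, and it was -0.01 when values were scaled to total reads, a scaling that moved the median of all genes by -0.13.

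The 6 ATPases of the cap, which pull the substrate apart, held 0 called genes in the limma fit, and 2 of them had an unadjusted p under 0.05. edgeR and DESeq2 also called none of them. Psmc1 was highest by fold change, with 2578, 2410 and 2534 in controls and 2736, 2884 and 2773 in knockouts, groups that did not overlap (log2 fold change 0.16, SE 0.07, adjusted p = 0.136). Psmc5 was lowest, with 1016, 1104 and 1262 in controls and 860, 970 and 1034 in knockouts, groups that did (log2 fold change -0.24, SE 0.10, adjusted p = 0.118). Of the other scalings and the left-out libraries, scaling to total reads (0.0301) and leaving out control 1 (0.0293) gave a call, lower in knockouts. The other 4 ATPases, Psmc2, Psmc3, Psmc4 and Psmc6, lay between -0.04 and 0.08.

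In the 20S core, 0 of the 7 alpha genes and 0 of the 7 constitutive beta genes were called by limma, and 1 of these 14 genes had an unadjusted p under 0.05. The median log2 fold change was -0.07, and the range ran from -0.16 for Psmb4 to 0.20 for Psmb7. Psma6, an alpha ring subunit, had the highest fold change of its ring, with 2017, 2166 and 2406 in controls and 2287, 2450 and 2421 in knockouts. Its groups overlapped, at a log2 fold change of 0.12 that became -0.01 under scaling to total reads. Psma3 had the lowest of the ring, with 829, 955 and 1160 in controls and 893, 828 and 940 in knockouts (log2 fold change -0.13, SE 0.11). Psmb4, which has no proteolytic activity of its own, had 1300, 1469 and 1816 in controls and 1278, 1395 and 1402 in knockouts, with overlapping groups (SE 0.11).

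None of the 3 catalytic genes of the core was called by limma. Psmb5, which cuts after hydrophobic residues, had 1010, 1026 and 1210 in controls and 978, 1043 and 1019 in knockouts (log2 fold change -0.09, SE 0.09). Psmb6, which cuts after acidic residues, had 1087, 1183 and 1377 in controls and 1192, 1151 and 1198 in knockouts (log2 fold change -0.04, SE 0.09). In both, the knockouts lay within or close to the range of the controls. Psmb7, which cuts after basic residues, had 742, 752 and 726 in controls and 826, 839 and 889 in knockouts, and these groups lay apart (log2 fold change 0.20, SE 0.08, adjusted p = 0.0979). Psmb7 overlaps Nek6 on the opposite strand.

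The control libraries differed among themselves in most core genes, Psmb7 being an exception with 726 to 752. Of the 14 core genes, 13 were highest, among controls, in control 3 and 12 were lowest in control 1, with a median log2 ratio of control 3 to control 1 of 0.37. Summed over the core, the normalized counts stood at 88.9, 98.3 and 112.8% of the control mean in controls and 94.4, 96.9 and 100.2% in knockouts, so that the knockouts lay inside the range of the controls. The 11 non-ATPases summed to 102.3, 97.8 and 99.9% in controls and 115.5, 114.9 and 117.2% in knockouts. Their mean sum rose from 20191 to 23392, and most of that rise came from Psmd2 (5226 to 6690) and Psmd1 (2424 to 3337). Of the 11, 4 had a negative log2 fold change. For the 5 immunoproteasome genes, counts summed to 82.9, 101.6 and 115.5% in controls and 87.8, 90.0 and 89.3% in knockouts.

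As a reference, the 4054 protein-coding genes at the control level of the constitutive subunits summed to 103.4, 100.4 and 96.2% in controls and 112.3, 111.2 and 110.3% in knockouts. Their median log2 fold change was 0.13, with 1231 genes called higher and 378 lower. The 31 constitutive subunits of core and cap had a median of -0.02, with 3 higher and 0 lower. The reference genes were longer, with a median deposited gene length of 5416 bases against 2808, so the 2 sets are not matched in length. Of 7853 protein-coding genes tested of 4000 bases or more, 1539 were called higher and 884 lower. Of the 6811 shorter ones, 490 were higher and 1055 lower. Of the 10 proteasome genes of 4000 bases or more, 3 were called higher and 0 lower, and of the 39 shorter ones 2 and 1. The normalized counts of all genes together also differed, at 96.8 to 103% of the control mean in controls and 109 to 110% in knockouts. Across the 49 genes, gene length and log2 fold change had a Spearman rho of 0.20, and across the reference genes 0.35. The part of length and of the difference in total in these values was not tested.

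**Figure D3:**
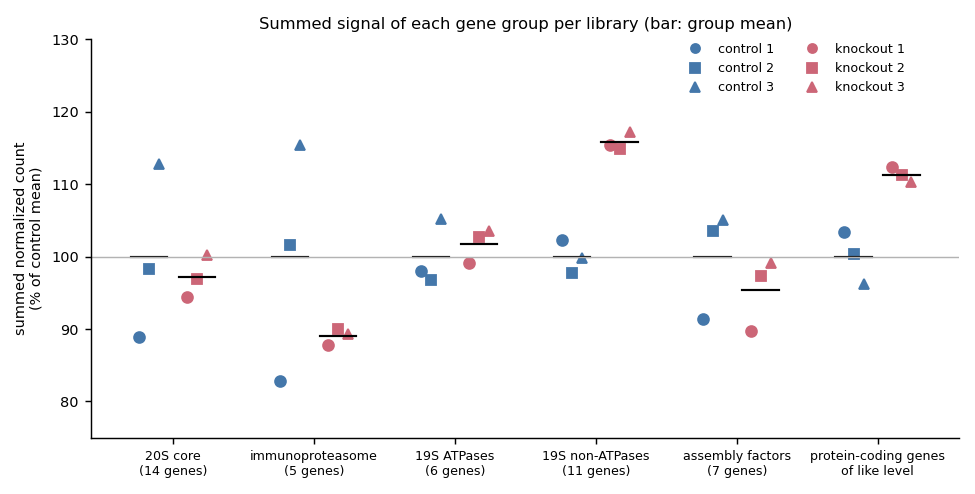
Summed normalized count of each group of genes in each library, as a percent of the mean of the 3 controls on the vertical axis, which starts at 75%. Points are libraries and horizontal bars are group means. The 3 knockouts lie above all controls for the 19S non-ATPases and for the protein-coding genes of like level, and inside the range of the controls for the 20S core and the immunoproteasome genes.

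Of the 5 immunoproteasome genes, 1 was called, and it was lower in knockouts. Psmb9, at chr17:34181988-34187764 (minus strand), encodes the inducible subunit that takes the place of Psmb6. It had normalized counts of 486, 667 and 822 in controls and 391, 495 and 433 in knockouts, so that the highest knockout lay just above control 1 and the groups overlapped. The log2 fold change was -0.56 (SE 0.16, limma adjusted p = 0.0284). The call was lost without control 2 (0.141), control 3 (0.0926), knockout 1 (0.153), knockout 2 (0.0748) or knockout 3 (0.11), and the adjusted p over all alternatives ranged from 0.000589 to 0.153. Psmb9 overlaps Tap1 on the opposite strand, and whether reads were counted by strand is not stated, so reads of the overlap cannot be assigned with certainty.

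The other inducible genes of the core were not called. Psmb8, which takes the place of Psmb5, had 1315, 1604 and 1838 in controls and 1307, 1384 and 1404 in knockouts (log2 fold change -0.20, SE 0.11, adjusted p = 0.212). Psmb10, which takes the place of Psmb7, had 925, 1090 and 1300 in controls and 821, 1045 and 937 in knockouts (log2 fold change -0.23, SE 0.12, adjusted p = 0.21). In both, control 1 lay among the knockouts while control 3 was above all of them. In Psme1, a subunit of PA28, control 1 was the lowest of all 6 libraries, with 1218, 1563 and 1861 in controls and 1272, 1416 and 1309 in knockouts (log2 fold change -0.20, SE 0.13, adjusted p = 0.308). Without control 1, all 3 were called lower, with adjusted p of 0.00805 for Psmb8, 0.0286 for Psmb10 and 0.00936 for Psme1.

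Each inducible gene was then set against the constitutive gene that it replaces, within each library and with no test, since an exact permutation test of 3 against 3 libraries cannot go below 0.10. For Psmb9 to Psmb6 the log2 ratio was -1.16, -0.82 and -0.74 in the controls against -1.61, -1.22 and -1.47 in the knockouts, a mean difference of -0.52 with the groups apart. For Psmb10 to Psmb7 it was 0.32, 0.54 and 0.84 against -0.01, 0.32 and 0.08, a mean difference of -0.44. These groups were barely apart, with control 1 at 0.318 and knockout 2 at 0.317. Both genes contributed to this difference, Psmb10 with a log2 fold change of -0.23 and Psmb7 with 0.20, and neither was called. For Psmb8 to Psmb5 it was 0.38, 0.64 and 0.60 against 0.42, 0.41 and 0.46, a difference of -0.11 with overlapping groups. Per kilobase of deposited gene length, the ratio in controls was 0.274 ± 0.040 for Psmb9 to Psmb6, 3.0 ± 0.55 for Psmb10 to Psmb7 and 0.480 ± 0.046 for Psmb8 to Psmb5 (SD, n = 3). In knockouts it was 0.191 ± 0.027, 2.2 ± 0.26 and 0.442 ± 0.009 (SD, n = 3).

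**Figure D4:**
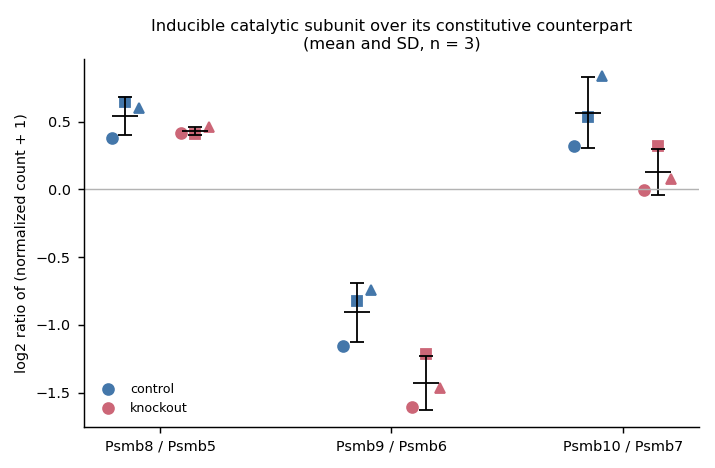
The log2 ratio of each inducible catalytic subunit gene to its constitutive counterpart on the vertical axis, for 3 control (blue) and 3 knockout (red) libraries, with the mean and SD (n = 3). The knockouts lie below all controls for Psmb9 to Psmb6, and among the controls for Psmb8 to Psmb5. For Psmb10 to Psmb7 the highest knockout (0.317) and the lowest control (0.318) are nearly equal.

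Psme2, the partner of Psme1 in PA28, went the other way from Psme1 in sign and was not called. It had 879, 989 and 898 in controls and 1320, 895 and 1117 in knockouts (log2 fold change 0.25, SE 0.12, adjusted p = 0.172), with knockout 2 at the level of the controls. Psme2b, at chr11:48945354-48946190 (minus strand), a copy of Psme2 on another chromosome, had 711, 898 and 1049 in controls and 1056, 1554 and 1234 in knockouts. Its highest control lay just under the lowest knockout, and the log2 fold change was 0.53 (SE 0.15, adjusted p = 0.0251). The call was lost under scaling to total reads (0.0975) and without control 1 (0.053), control 2 (0.108), knockout 2 (0.16) or knockout 3 (0.0913), in a range over all alternatives of 0.000205 to 0.16.

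Reads of Psme2 and Psme2b cannot be told apart with certainty, since the copies share sequence and the counting of such reads is not stated. The share of the pair's counts given to Psme2b ran at 44.7, 47.6 and 53.9% over the controls and at 44.5, 63.4 and 52.5% over the knockouts. The library with the largest share, knockout 2, was also the knockout with the least Psme2. Together both copies had 1590, 1887 and 1947 in the controls against 2376, 2449 and 2351 in the knockouts, which is 1808 ± 191 against 2392 ± 51.0 (SD, n = 3), a ratio of means of 1.32. All knockouts lay above all controls in the sum. Psme2b also overlaps 9930111J21Rik1 on the same strand, which held 1404 control reads.

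**Figure D5:**
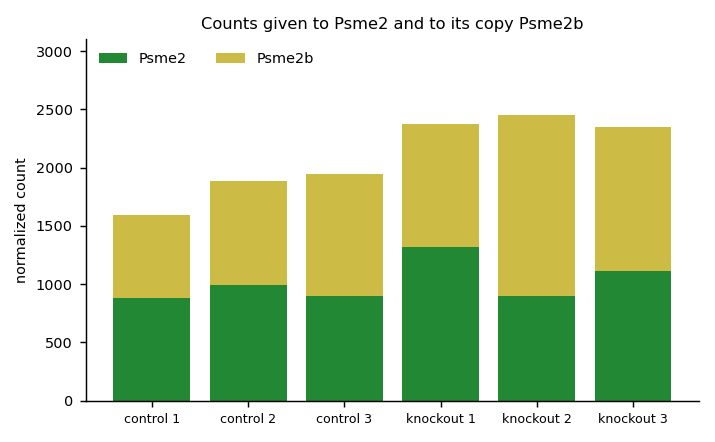
Normalized counts given to Psme2 (green) and to its copy Psme2b (yellow), stacked for each library, with the vertical axis from 0. The sums lie between 1590 and 1947 in controls and between 2351 and 2449 in knockouts, while the split between both copies varies from library to library.

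Of the other activators, Psme4 was called. Psme4, at chr11:30771726-30880361 (plus strand), encodes PA200, a large activator that caps the core in the nucleus. It had 3885, 3446 and 3005 in controls and 4629, 4586 and 4266 in knockouts, with no overlap (log2 fold change 0.39, SE 0.09, adjusted p = 0.0107). The call was lost without control 2 (0.0683), knockout 1 (0.0734) or knockout 2 (0.0814), in a range over all alternatives of 0.000409 to 0.0814. Psme3, a nuclear relative of PA28, was the next in level, with 1925, 2008 and 1943 in controls and 2013, 2151 and 2115 in knockouts (log2 fold change 0.10, SE 0.07). Psmf1, which binds the core and inhibits it in the test tube, had 511, 483 and 450 in controls and 390, 505 and 475 in knockouts (log2 fold change -0.08, SE 0.11).

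The 7 assembly factors held 0 called genes by limma and 0 with an unadjusted p under 0.05, and edgeR and DESeq2 called none. Their median log2 fold change was -0.20. Psmg3, an alpha ring chaperone, was lowest with 38.8, 76.7 and 78.0 in controls and 35.9, 44.8 and 58.1 in knockouts (log2 fold change -0.43, SE 0.30), where control 1 lay among the knockouts. Psmd5, a chaperone of the cap's base, was highest with 687, 706 and 665 in controls and 708, 741 and 790 in knockouts (log2 fold change 0.12, SE 0.08). Their levels in controls ran from 22.3 for Psmg3 to 318 for Psmg4 in normalized counts per kilobase.

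Levels per kilobase in controls ran from 252 for Psma3 to 1780 for Psma6 in the alpha ring and from 216 for Psmb7 to 1204 for Psmb5 in the constitutive beta ring. They ran from 277 for Psmc2 to 1297 for Psmc1 among the ATPases, from 193 for Psmd11 to 1294 for Psmd2 among the non-ATPases, and from 180 for Psmb9 to 701 for Psme1 among the immunoproteasome genes. The genes of a ring, whose proteins stand in equal numbers in the particle, thus differed several-fold per kilobase of deposited gene length. That length itself differed, from 899 bases for Psmb5 to 4595 for Psmb1 in the beta ring. Mean control counts of this ring, not divided by length, ran from 740 to 1654. Whether the deposited length is that of the expressed RNA is not stated, so the part of length in these differences cannot be told.

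The remaining genes share the name start without being general subunits. Psma8, an alpha subunit of the testis, was near the floor, with 26.4, 13.8 and 26.3 in controls and 23.9, 12.6 and 30.2 in knockouts. Psmc3ip, a protein of meiotic recombination named for its binding to an ATPase of the cap, had 23.8, 36.4 and 26.3 in controls and 15.2, 16.5 and 15.6 in knockouts. Its groups lay apart at a log2 fold change of -0.81 (SE 0.33, adjusted p = 0.102), from 92 control and 45 knockout reads in all, and it overlaps Mlx on the opposite strand.

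Among genes that work with the proteasome, of which 17 partners were measured, 6 were called higher and 2 lower. Over all genes tested, the shares were 10.4 and 10.5%. Of the 4054 reference genes at the control level of the constitutive subunits, 1231 were called higher and 378 lower. The partners had a median log2 fold change of 0.13, as had the reference genes, and it was -0.01 for the partners under scaling to total reads. The counts were 2 and 0 without control 2, 2 and 1 without knockout 1 or knockout 2, and 4 and 0 without knockout 3. Ecpas, a scaffold that binds core and cap, had 3644, 3069 and 2522 in controls and 4398, 4133 and 4349 in knockouts (log2 fold change 0.50, SE 0.11, adjusted p = 0.00784). Zfand5, an activator of the proteasome, had 2642, 2691 and 2637 in controls and 3312, 3640 and 3627 in knockouts (log2 fold change 0.41, SE 0.07). In both, every knockout lay above every control. The 2 that fell were Sem1, the smallest cap subunit, with a log2 fold change of -0.58 (adjusted p = 0.00699), and Pomp, the maturation factor of the core, with -0.52 (adjusted p = 0.0137). Pomp had 977, 1157 and 1520 in controls and 813, 819 and 867 in knockouts, with all knockouts below the controls.

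Of 10 genes for ubiquitin, its activation and unfolding, 4 were called higher and 0 lower in the limma fit. Their median log2 fold change was -0.03. Over all genes tested, 10.4% were called higher and 10.5% lower, and of the 4054 reference genes 1231 were higher and 378 lower. The higher count was 2 without control 2 or any one of the knockouts. The called genes were the activating enzymes Uba6 (log2 fold change 0.59) and Uba1 (0.37), the unfolding ATPase Vcp (0.43) and its cofactor Nploc4 (0.28). Under scaling to total reads, 2 were called higher and 2 lower, while the partners had 5 higher and 3 lower. Of 11 regulators of proteasome genes, 1 rose and 1 fell, against 10.4 and 10.5% of all genes tested. Nfe2l1, the transcription factor that raises proteasome genes when proteasome activity is short, had 5727, 5255 and 4380 in controls and 8263, 7643 and 7432 in knockouts. All knockouts lay above the controls (log2 fold change 0.61, SE 0.10, adjusted p = 0.000952). Nfe2l2, its relative in the oxidative stress response, fell by 0.28 on the log2 scale (adjusted p = 0.0174), a call that was lost without control 2 or any one of the knockouts.

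The MHC class I pathway, which receives the peptides of the proteasome, had 7 of 15 genes lower and 1 higher, against 10.5 and 10.4% of all genes tested. The counts were 4 lower and 0 higher without control 2, 5 and 0 without any one knockout, and 7 and 3 without control 1. The largest falls were those of H2-Q7 (log2 fold change -2.48), H2-Q4 (-1.45) and H2-D1 (-0.81), class I heavy chain genes that share sequence with each other, so that reads can be split between them. Also called lower were H2-M3 (-0.78), H2-K1 (-0.69), B2m (-0.55) and Tapbpl (-0.39). Summed over the 15 genes, counts stood at 88.2, 101.1 and 110.7% of the control mean in controls and 74.5, 79.5 and 78.0% in knockouts. The part of split reads in these falls was not tested. The higher gene was Canx, a chaperone of newly made glycoproteins (0.28), which was not called under scaling to total reads, where 8 genes were lower and 0 higher. Tap1, the neighbour of Psmb9, had 2147, 2376 and 2495 in controls and 2579, 2608 and 2403 in knockouts (log2 fold change 0.11, SE 0.08, adjusted p = 0.343), with overlapping groups. The neighbours differed in sign, and the difference between them was not tested.

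Of 13 genes of the interferon gamma pathway, 4 fell and 2 rose, against 10.5 and 10.4% of all genes tested. The counts were 2 lower and 1 higher without control 2, 4 and 4 without control 3, 2 and 0 without knockout 1, 3 and 0 without knockout 2, and 2 and 2 without knockout 3. Irf1, a transcription factor that raises Psmb9 and Tap1 under interferon, had 802, 1095 and 1473 in controls and 676, 681 and 736 in knockouts (log2 fold change -0.64, SE 0.16, adjusted p = 0.0154). Among controls, control 1 was lowest and control 3 highest, an order also seen in most proteasome genes (32 of 49 lowest in control 1 and 33 highest in control 3). Ciita, the activator of MHC class II genes, fell by 1.90, Ifngr1, a chain of the interferon gamma receptor, by 0.50 and Irf2 by 0.34 on the log2 scale. The genes that rose were Stat2 (0.32) and Ifngr2, the other receptor chain (0.30), and neither was called under scaling to total reads. Nlrc5, the activator of class I genes, had a log2 fold change of -0.01 (limma adjusted p = 0.968).

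The immunoproteasome and class I genes are also expressed by other cell types, some of whose markers moved in the same libraries. The summed dendritic cell markers were at 89.2 to 116% of the control mean in controls and at 44.3 to 59.0% in knockouts, the T and NK cell markers, nearly all of it Cd4, at 88.2 to 107% and 15.0 to 16.3%, and the B cell markers at 92.5 to 111% and 86.6 to 92.0%. The last of these sums was carried by Ighm and Cd79b, which were at 2819 and 573 in controls and at 2726 and 589 in knockouts. In the T and NK cell list, Cd3d, Cd3e, Cd3g and Trac were at the floor. They held 1, 2, 1 and 7 reads over the controls and 3, 2, 1 and 1 over the knockouts. The sum of that list thus describes Cd4 and not the T cell receptor genes. The neutrophil markers were at 91.6 to 106% and 53.7 to 57.4%, the mast cell and basophil markers at 81.4 to 118% and 17.4 to 21.5%, and the stromal markers at 81.3 to 120% and 26.4 to 32.0%. Of the neutrophil markers, Ltf was at 3381 in controls and 3383 in knockouts, and Ltf, Ly6g and Retnlg were not called. The endothelial markers were at 89.0 to 111% and 70.5 to 86.2%, the megakaryocyte markers at 71.9 to 121% and 26.7 to 31.3%, and the erythroid markers at 94.1 to 106% and 18.9 to 48.6%. Fcer2a, Ncr1, Cpa3, Fcer1a and Hba-a1 were at 0 in all 3 knockouts, and the part of these cells in the values above was not tested.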

How the data were processed

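The authors deposited, per the file headers, 1 table of normalized values per gene for 6 RNA libraries and 1 peak list for each of 2 ChIP libraries. The deposited RNA values are a signal, gene read counts divided by 1 size factor per library, and whole reads could be recovered for 100.0% of values (within 0.001). The authors' log2 fold changes and p-values in that table were not used. The deposited peak lists hold for each peak a score, a fold enrichment (a ratio to background), and p and q values as −log10. Per the submitters' processing notes, HISAT2 2.1.0, Bowtie2 2.2.3 and HTSeq 0.6.0 served the RNA libraries, BWA, SAMtools, MACS2, deepTools and DESeq2 the ChIP libraries, and the build was mm10. Not given in the sources used here are their roles, the annotation, the strand setting, the input control and the peak threshold.

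Knockout and control were compared with limma 3.58.1 (R 4.3.3) with a trend on log2(value + 1), over genes whose group mean reached 1 in controls or knockouts, with Benjamini-Hochberg adjustment over all genes tested and a threshold of 0.05. A fold change is on that scale and understates changes of low genes. Alternatives were other pseudocounts, filters and scalings, edgeR 4.0.16 and DESeq2 1.42.0 on the recovered reads, a replicate block, each library left out, and other peak windows, thresholds and gene starts. The test was also run on simulated counts, where only the recovery of the sign of set changes was required. Those counts had a common dispersion for all genes and no set difference in totals, unlike these data, so the run does not bear on the calls here. The genes and lists were chosen with earlier results of these data known. Values in every library are given for the immunoproteasome genes, their counterparts, every called gene and the highest and lowest fold change of each role. Of each pathway list at most 4 called genes with the largest change in each direction are named, with Ets1, Irf1, Nlrc5, Nfe2l1 and Tap1; some items are not reported here. H2-K1, B2m and Tapbpl are named beyond this limit. They, H2-M3, Irf2 and the other proteasome genes with values were named after their values were seen. Peaks were joined to genes by any overlap with 1 kb either side of the deposited start. Promoters are RefSeq sequences of build GRCm38.p6, matched by symbol for 41 of the 49 genes. Levels per kilobase use the deposited gene length.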

Additional observations from a re-analysis of the deposited data

How the results depend on the processing

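The calls of the 6 genes kept their direction in all 90 values recomputed under alternatives and stayed past the threshold in 70. Over all genes, 4298 were called in the fit reported, 4282 by edgeR with TMM scaling, 4174 by DESeq2 and 2029 to 5716 with 1 library left out. The number of proteasome genes called higher was 5, with 3 under scaling to total reads and 1 to 7 with 1 library left out. Without control 2, and likewise without knockout 2, only Psmd1 was called higher. The number called lower was 1, with 2 under scaling to total reads (Psmb9 and Psmc5) and 0 to 6 with 1 library left out. It was 6 without control 1 (Psmb8, Psmb9, Psmb10, Psmc5, Psme1 and Psmg3) and 0 when any one of the other 5 libraries was left out. Scaling to total reads lowered the median of all genes by 0.13 (a shift of -0.13), and 26.7% of its calls were higher, against 49.8%. The 3 log2 ratios kept their sign with 1 library left out, from -0.19 to -0.06 for Psmb8 to Psmb5, from -0.65 to -0.43 for Psmb9 to Psmb6 and from -0.56 to -0.30 for Psmb10 to Psmb7.

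Among the 24 proteasome genes that the naming rule chose, sign changes concerned genes that were not called. Over all 49 genes, those with a positive fold change numbered 18 in the fit reported, 10 under scaling to total reads and 21 with edgeR's upper-quartile scaling. Under scaling to total reads Psma6 was at -0.0108 and Psmd5 at -0.0123. Psma8 was at 0.00028 with edgeR's upper-quartile scaling and from -0.317 to 0.324 with 1 library left out. So treated, Psmb6 ran from -0.112 to 0.0581 and Psmf1 from -0.160 to 0.0273. With the replicate number as a block, 5374 genes were called, with 6 proteasome genes higher and 2 lower, Psmd14 and Psmc5 being added. Controls and knockouts of the same number deviated together only weakly (correlations of 0.02, 0.02 and 0.03). Pairs of unlike number lay between -0.017 and -0.006, so each knockout correlated best with the control of its own number. This is a hint from the data and not from the design. The labels name no pairing, and correlations this small cannot decide whether the libraries were paired. Peaks in both lists were found at 37 genes with windows of 500 bp, 1 kb or 2 kb, at 31 with a -log10 q of at least 5, and at 33 of the 41 genes with a RefSeq start. The causes of these changes were not tested, and groups of 3 libraries limit the precision of every value.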
